A study of Mus musculus with 4 samples.

Results

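Condensin I, cohesin and topoisomerase II alpha shape the chromosomes of dividing cells, and their genes were compared here between long-term (LT-HSC) and short-term (ST-HSC) haematopoietic stem cells of mouse bone marrow. The set held 10 genes: the condensin I subunits Smc2, Smc4, Ncaph, Ncapg and Ncapd2, the topoisomerase gene Top2a, and the cohesin subunits Smc1a, Smc3, Rad21 and Stag2. Every probe set annotated to 1 of these symbols alone was taken, which gave 27 of the 45037 probe sets of the array (10 of 18193 genes named alone on a probe set), and each of them is described. Of these 27, 24 were bright enough to be tested. In LT-HSC, 10 of the 24 were lower and 0 were higher, where 5.48% and 6.72% of all tested probe sets were, and 9 of those 10 belonged to condensin I and Top2a. With LT-HSC replicate 1 or 2 left out, all or nearly all of these 10 probe sets no longer counted as lower. The same held for nearly all lower probe sets of the whole array.

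Condensin and cohesin are ring-shaped complexes built on a pair of SMC ATPases, closed by a kleisin subunit and completed by HEAT-repeat proteins. Condensin compacts chromatin into rod-shaped chromosomes at mitosis. Cohesin holds sister chromatids together from replication to anaphase, and it also forms chromatin loops in cells that do not divide. Topoisomerase II alpha passes DNA duplexes through each other and untangles sister chromatids; it is made mainly in cycling cells, and its gene is a standard marker of proliferation. LT-HSC are known as a mostly quiescent population, while ST-HSC enter the cycle more often.

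The 4 arrays were 2 of LT-HSC, replicates 1 and 2, sorted as Lin-cKit+Sca1+CD34-CD135-, and 2 of ST-HSC, replicates 2 and 3, sorted as Lin-cKit+Sca1+CD34+CD135-. Every mouse was of the C57BL/6 strain and lacked the Mx-Cre transgene (MxCre-) in both groups. Poly(I:C), a double-stranded RNA mimic that triggers interferon, had been injected 7 times in both groups. The mice were 7.5 weeks old, 4 weeks past the last injection, for both LT-HSC samples and ST-HSC replicate 2, and 8.5 weeks old, 3 weeks past it, for ST-HSC replicate 3. For both ST-HSC samples the tissue entry names LT-HSC although it gives the CD34+ gate, and groups were taken from the titles. Nothing in the labels says whether the replicates of a group were separate animals or pools, so the p-values measure the spread between these arrays, part of which may be technical.

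Levels below are the deposited intensities on a linear scale, given in the order LT-HSC replicate 1 and 2 and then ST-HSC replicate 2 and 3. Differences are LT-HSC minus ST-HSC on the log2(intensity + 16) scale after quantile normalization, with the standard error (SE) and the adjusted p of limma over all tested probe sets, and folds are on that scale too. Median intensities of the arrays ran from 19.1 to 28.3. The ratio of the 3′ to the 5′ control probe set of beta-actin, a measure of how far transcripts were truncated, was 18.4 to 19.6 on 3 arrays and 6.65 on ST-HSC replicate 3. For Gapdh it was 13.9 to 15.7 against 6.59. Cd34, which separated the gates, read 18.3 and 23.5 on the LT-HSC arrays against 841 and 1142 on the ST-HSC arrays, and the gene of Sca1 was not analysed here. Kit, on which both gates were positive, read 397 and 382 against 684 and 907. It was lower in LT-HSC (-1.02, adjusted p = 0.0498), on 1 of 2 probe sets. Flt3, which encodes CD135, read 62.3 and 53.4 against 258 and 134 and did not pass (adjusted p = 0.0631).

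Markers of other marrow cells moved with the groups. The summed intensity of 5 plasma cell markers was 47134 and 47355 on the LT-HSC arrays against 1539 and 3058 on the ST-HSC arrays, with all 5 higher in LT-HSC. That of 6 B-cell markers was 4668 and 5154 against 269 and 363, with 4 higher. Of 6 markers of maturing granulocytes none passed (0), and their sum was 47590 on ST-HSC replicate 3 against 466 to 3793 on the other arrays. Of 5 genes of myeloid progenitors 4 were lower in LT-HSC, with sums of 784 to 1228 against 6207 and 17331. Of the tested markers, 3 of 4 of T and NK cells were higher and 1 lower, 1 of 3 of erythroid cells and 2 of 4 of platelets were lower, and 2 of 5 of macrophages and dendritic cells were higher. For the 3 higher T and NK markers, Cd3g, Gzma and Klrd1, the ST-HSC mean lay below the level of the filter on dim probe sets. The same held for the B-cell marker Blk, so these were tested only because of their LT-HSC level. The platelet marker Gp5 was tested only because of its ST-HSC level. Some of these markers read near the floor, such as Gp5 at 1.78 on LT-HSC replicate 1, where the lower quartile of all probe sets was 6.02. A reading above 0 therefore does not show that a cell type was present. The part of these cells in the results below was not tested. In bulk RNA, fewer cells that express a gene and less of its RNA per cell cannot be told apart.

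**Figure D1:**
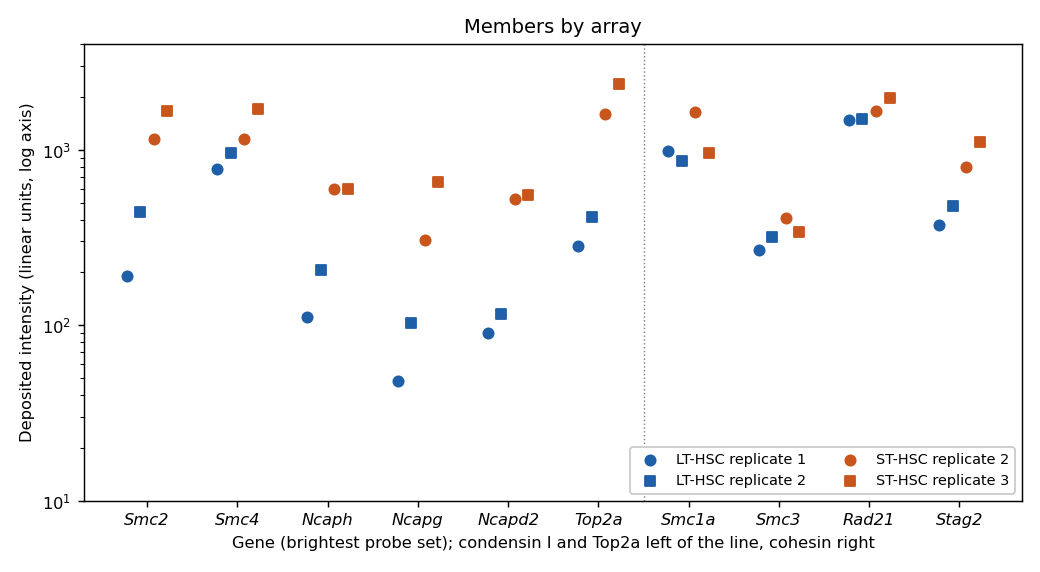
Deposited intensity (vertical log axis, linear units) of the brightest probe set of each of the 10 genes on the 4 arrays, blue for LT-HSC and orange for ST-HSC. Both LT-HSC arrays lie below both ST-HSC arrays for all genes except Smc1a, where LT-HSC replicate 1 (989) lies above ST-HSC replicate 3 (952) before normalization.

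Both SMC ATPases of condensin were lower in LT-HSC on at least 1 probe set. Smc2, on its brightest probe set 1448635_at, read 190.2 and 444 on the LT-HSC arrays against 1145 and 1656 on the ST-HSC arrays. Every LT-HSC value lay below every ST-HSC value, and Smc2 was 4.67-fold lower in LT-HSC (difference -2.22, SE 0.39, adjusted p = 0.0168). The probe set 1458479_at was 2.82-fold lower (7.17 and 16.4 against 68.8 and 67.1; SE 0.30, adjusted p = 0.0259). Its LT-HSC mean lay below the level of the filter on dim probe sets, so it was tested only because of its ST-HSC level. The probe sets 1429658_a_at and 1429660_s_at had differences of -1.49 and -1.27 without overlap between the groups and did not pass (adjusted p = 0.0984 and 0.0637). The fifth, 1429659_at, was too dim to be tested and read 4.86 and 18.2 against 12.8 and 14.5, so its groups overlapped. Without LT-HSC replicate 1 or 2, the calls of 1448635_at (adjusted p = 0.162 and 0.0544) and 1458479_at (adjusted p = 0.167 and 0.112) were lost.

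Smc4, the partner of Smc2 in the ATPase pair, had 3 tested probe sets with differences of -1.37, -0.84 and -0.74. The probe set 1452197_at read 442 and 645 on the LT-HSC arrays against 1109 and 1553 on the ST-HSC arrays and was 2.58-fold lower (SE 0.28, adjusted p = 0.0279). The brighter 1427275_at read 779 and 955 against 1148 and 1715. Its groups did not overlap, and it did not pass (difference -0.84, 95% interval -1.46 to -0.22, adjusted p = 0.0835). The third, 1427276_at, read 105 and 157 against 277 and 220.1 and did not pass (adjusted p = 0.158). The call of 1452197_at did not hold without LT-HSC replicate 1 or 2 (adjusted p = 0.308 and 0.139), with the arrays centred on their 75th percentiles (0.0515) and without the intensity trend (0.0501). The difference of the brighter probe set stayed below 0 with ST-HSC replicate 2 or 3 left out.

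The kleisin and the HEAT-repeat subunits fell as well, each on at least 1 probe set. Ncaph encodes the kleisin that closes the condensin I ring, and it was the only condensin gene with a call on both of 2 probe sets. The probe set 1436707_x_at read 112 and 206 on the LT-HSC arrays against 596 and 599 on the ST-HSC arrays, a 3.51-fold difference (-1.81, SE 0.32, adjusted p = 0.0174). The second, 1423920_at, read 46.2 and 80.02 against 249 and 232 and was 3.06-fold lower (SE 0.31, adjusted p = 0.0217). The ST-HSC arrays lay close together on both probe sets, while LT-HSC replicate 1 read below LT-HSC replicate 2. Neither call held without LT-HSC replicate 1 (adjusted p = 0.239 and 0.25) or 2 (0.104 and 0.138). The suffix x marks a probe set whose probes can match other transcripts, so its value is less certain.

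Ncapg, a HEAT-repeat subunit of condensin I, was 4.87-fold lower on 1429171_a_at, with 47.98 and 103 on the LT-HSC arrays against 306 and 651 on the ST-HSC arrays (difference -2.28, SE 0.44, adjusted p = 0.0233). The groups did not overlap, and the ST-HSC arrays stood apart from each other. Its dimmer probe set 1429172_a_at read 11.1 and 55.02 against 129 and 64.3 and did not pass (-1.18, SE 0.45, adjusted p = 0.133). Ncapd2, the other HEAT-repeat subunit, had probe sets with close and with distant replicates. Its probe set 1423847_at read 90.3 and 116 against 524 and 552, a 4.51-fold difference (-2.17, SE 0.28, adjusted p = 0.00623). Its second probe set 1430010_at read 68.9 and 130.3 against 352 and 96.7, so the groups overlapped through ST-HSC replicate 3 (-0.76, SE 0.55, adjusted p = 0.389). The difference of 1430010_at was -1.57 with ST-HSC replicate 3 left out, and it turned to 0.049 without ST-HSC replicate 2. The calls of Ncapg and Ncapd2 did not hold without LT-HSC replicate 1 (adjusted p = 0.215 and 0.129) or 2 (0.103 and 0.0961).

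Top2a had the largest difference of the 10 genes. The probe set 1454694_a_at read 283 and 411 on the LT-HSC arrays against 1594 and 2380.1 on the ST-HSC arrays, and both LT-HSC arrays lay far below both ST-HSC arrays. On the log2 scale the means were 8.50 ± 0.33 (SD, n = 2) and 11.10 ± 0.39 (SD, n = 2), a 6.04-fold difference (-2.59, SE 0.29, adjusted p = 0.00389). Among the member probe sets this was the call that held without LT-HSC replicate 2 (adjusted p = 0.0437), and without LT-HSC replicate 1 it was lost (0.0689). The dimmer 1442454_at fell by 1.34 (11.9 and 31.4 against 82.4 and 85.7; SE 0.32, adjusted p = 0.0436). It no longer passed with LT-HSC replicate 1 or 2 left out (adjusted p = 0.289 and 0.131), without ST-HSC replicate 3 (0.0813), without normalization between arrays (0.0541) and without the filter (0.0724). The third probe set, 1427724_at, was not tested, and its 4 arrays read between 9.37e-06 and 12.3, so it gave no usable level.

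Because condensin genes and Top2a moved together, their promoters were searched for elements known from cell cycle genes. These were the CHR of late cell cycle genes (TTTGAA or TTCGAA), the CCAAT box (CCAAT) and 4 E2F words (TTTCGCGC, TTTGGCGC, TTTCCCGC and TTTGCCGC), on both strands and without overlap between hits in the promoters shown. RefSeq windows of build GRCm38.p6, from 250 bases before to 50 after the gene start, were matched for 7 of the 10 genes; Smc4, Rad21 and Stag2 had no entry. A CHR word was found in 4 of the 5 matched condensin and Top2a promoters (not in Ncaph) and in 0 of the 2 cohesin promoters, against 19.2% of all 32851 promoters. A CCAAT box was found in 4 of 5 and in 1 of 2 (Smc1a), against 37.4%, and an E2F word in 2 of 5 (Ncapg and Ncapd2) and in 1 of 2 (Smc1a), against 2.3%. For the other chromosome structure genes described below, 12 promoters of 10 lower genes and 16 promoters of 15 genes not lower were matched. A CHR word was in 8 of the 12, from 8 genes, and a CCAAT box in 8 of the 12, from 7 genes. Of the promoters of those not lower, 6 of 16 held each. An E2F word was in 1 of 12 promoters of the lower genes and in 3 of 16 of those not lower. The windows of 4 called genes and of Smc3, which was not called, are printed here to show how the words lie; capitals mark the words, and all are written 5′ to 3′ on the gene's strand.
Top2a (chr11:99024140-99024439, minus strand): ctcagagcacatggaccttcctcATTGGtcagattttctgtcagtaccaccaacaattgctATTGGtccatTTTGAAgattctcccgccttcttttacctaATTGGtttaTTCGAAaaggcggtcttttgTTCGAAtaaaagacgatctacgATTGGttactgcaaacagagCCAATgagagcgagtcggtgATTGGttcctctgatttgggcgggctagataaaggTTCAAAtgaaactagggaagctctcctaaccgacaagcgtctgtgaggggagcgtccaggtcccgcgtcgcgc
Ncapd2 (chr6:125191537-125191836, minus strand): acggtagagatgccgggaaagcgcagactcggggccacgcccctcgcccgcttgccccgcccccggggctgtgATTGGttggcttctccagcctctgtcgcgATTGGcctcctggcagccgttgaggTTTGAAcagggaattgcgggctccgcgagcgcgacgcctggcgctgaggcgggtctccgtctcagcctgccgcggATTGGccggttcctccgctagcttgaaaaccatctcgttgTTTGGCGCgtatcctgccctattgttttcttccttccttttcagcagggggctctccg
Ncapg (chr5:45669675-45669974, plus strand): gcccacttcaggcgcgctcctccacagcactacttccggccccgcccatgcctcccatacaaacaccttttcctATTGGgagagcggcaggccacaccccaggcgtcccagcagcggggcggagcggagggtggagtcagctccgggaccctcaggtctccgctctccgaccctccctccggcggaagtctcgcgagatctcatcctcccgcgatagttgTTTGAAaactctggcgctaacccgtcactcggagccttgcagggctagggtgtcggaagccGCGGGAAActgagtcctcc
Smc2 (chr4:52438971-52439270, plus strand): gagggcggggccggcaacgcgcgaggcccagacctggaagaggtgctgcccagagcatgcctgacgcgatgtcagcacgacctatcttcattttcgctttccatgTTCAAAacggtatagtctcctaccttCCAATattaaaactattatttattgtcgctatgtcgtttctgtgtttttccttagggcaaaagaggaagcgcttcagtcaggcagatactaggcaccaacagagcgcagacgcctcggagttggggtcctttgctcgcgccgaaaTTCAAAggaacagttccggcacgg
Smc3 (chr19:53600146-53600445, plus strand): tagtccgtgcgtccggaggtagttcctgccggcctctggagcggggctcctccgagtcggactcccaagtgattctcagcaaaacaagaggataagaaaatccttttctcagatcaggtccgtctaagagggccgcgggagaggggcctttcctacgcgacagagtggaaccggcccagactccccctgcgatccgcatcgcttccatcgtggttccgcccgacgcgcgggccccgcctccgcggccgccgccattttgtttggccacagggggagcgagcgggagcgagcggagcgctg

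The Top2a window held 6 CCAAT boxes and 4 CHR words, and 1.06% of all promoters held 4 or more CCAAT boxes. Only 8 of the 32851 promoters held 4 or more CHR words. The CHR word nearest to the start of Top2a began at base -23, and that of Ncapg at base -30. Ncapd2 held 3 CCAAT boxes, a CHR word at -123 and an E2F word at -8. Smc2 held 1 CCAAT box and CHR words at -145 and at 27 bases into the transcript. The windows of Smc3 and Ncaph held none of these words, although Ncaph was called lower on both probe sets. A match of letters is not a measured binding site, and no binding was measured here.

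The cohesin genes differed less than the condensin genes on most probe sets. Of 9 tested cohesin probe sets 1 was lower in LT-HSC and 0 were higher, with a median difference of -0.59, against 9 of 15 and a median of -1.49 for condensin I and Top2a. The share lower over all tested probe sets was 5.48%, so by calls 1 of 9 lay near the background. Both LT-HSC arrays lay below both ST-HSC arrays on 7 of the 9, where 34.2% of all tested probe sets did so. Over all tested probe sets the median was -0.08. No test of the difference between the complexes was made. Without ST-HSC replicate 2 or 3 more cohesin probe sets were lower, and so was a larger share of all tested probe sets. The difference of Smc1a 1417831_at was 2.16 without ST-HSC replicate 2. With LT-HSC replicate 1 or 2 left out no cohesin probe set was lower or higher, where few of all tested ones were.

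Stag2 was the cohesin gene that passed. It encodes a HEAT-repeat subunit of cohesin. Its probe set 1421849_at read 373 and 478 on the LT-HSC arrays against 792 and 1108 on the ST-HSC arrays, without overlap, and was 2.26-fold lower (-1.18, SE 0.27, adjusted p = 0.0394). The dimmer 1450396_at read 36.3 and 40.2 against 66.1 and 146 and did not pass (-0.96, SE 0.44, adjusted p = 0.192). The call was lost with centring on array medians (adjusted p = 0.0797) or 75th percentiles (0.0852) in place of quantile normalization, without the intensity trend (0.0608) and without LT-HSC replicate 1 (0.377) or 2 (0.209).

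Smc3 and Rad21 had lower LT-HSC values that did not pass. Smc3, an ATPase of cohesin, read 267 and 318 on the LT-HSC arrays against 408 and 338 on the ST-HSC arrays on 1450950_at (-0.30, 95% interval -0.96 to 0.36, adjusted p = 0.508). The groups were apart but close, and a difference as large as that of Top2a lies outside this interval. Its dim probe set 1450951_at read 9.57 and 30.2 against 65.3 and 55.1 (-1.03, SE 0.33, adjusted p = 0.0871). Rad21 encodes the kleisin that separase cuts at anaphase. Its brightest probe set 1416161_at read 1481 and 1489.9 on the LT-HSC arrays against 1652 and 1978 on the ST-HSC arrays, a difference of -0.52 (95% interval -0.96 to -0.07, adjusted p = 0.122). This value depended on the scaling and was -0.18 and -0.14 with the arrays centred on their medians and 75th percentiles. It stayed below 0 with ST-HSC replicate 2 or 3 left out. The probe set 1455938_x_at read 326 and 364 against 421 and 1204, so ST-HSC replicate 3 set its difference of -1.01 (adjusted p = 0.215). Without that array the difference was -0.23, and without ST-HSC replicate 2 it was -1.84. The third, 1416162_at, just missed the filter with a mean of 5.025 against a level of 5.028 and read 5.80 and 9.06 against 26.8 and 30.6.

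Smc1a, the partner of Smc3, gave probe sets that disagreed. The brightest, 1417830_at, read 989 and 860.4 on the LT-HSC arrays against 1635 and 952 on the ST-HSC arrays, and did not pass (-0.59, SE 0.33, adjusted p = 0.274). The probe set 1417831_at read 395 and 381 against 875 and 76.5, so the LT-HSC arrays agreed while the ST-HSC arrays lay on either side of them. Its difference of 0.44 (SE 0.94, adjusted p = 0.787) became -1.24 (adjusted p = 0.000204) without ST-HSC replicate 3 and 2.16 (adjusted p = 4.62e-05) without ST-HSC replicate 2. ST-HSC replicate 3 is also the array whose 3′ to 5′ ratios of beta-actin and Gapdh stood apart, and the part of RNA quality in this reading was not tested. The third probe set, 1417832_at, read 64.8 and 57.5 against 79.5 and 48.6 (0.10, SE 0.33, adjusted p = 0.866), and its sign turned without normalization between arrays (-0.029). Without ST-HSC replicate 3, the difference of 1417830_at was -1.07.

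**Figure D2:**
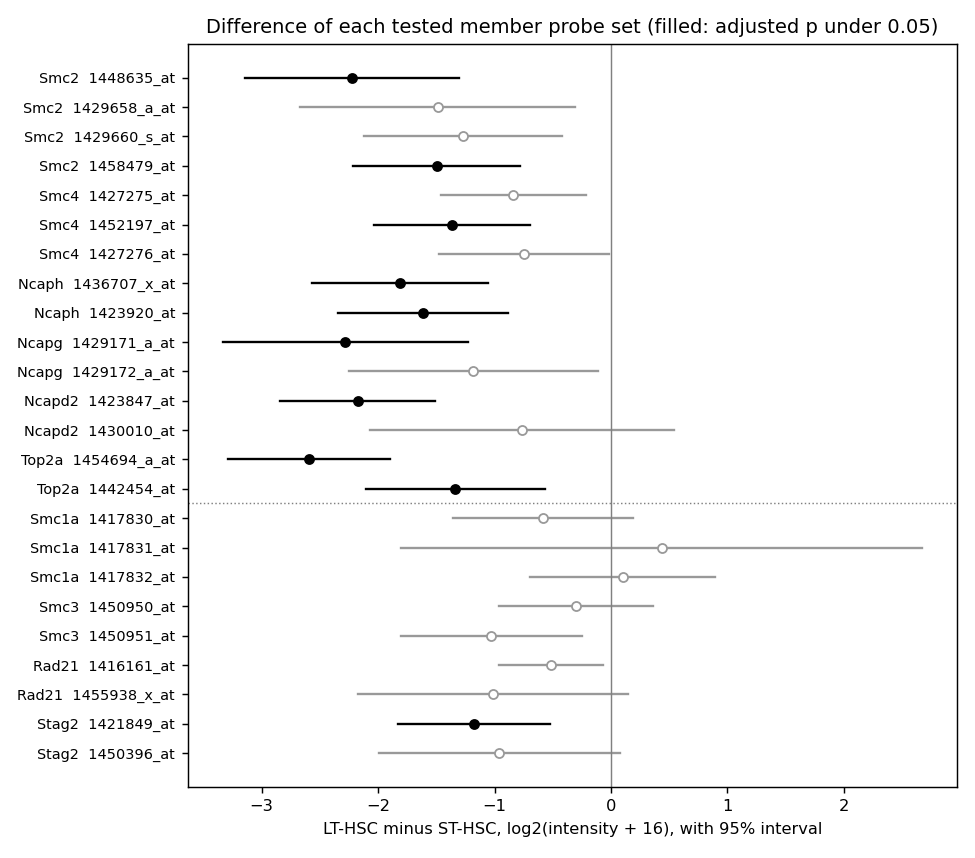
Difference LT-HSC minus ST-HSC (horizontal axis, log2 scale) with its 95% interval for the 24 tested probe sets, grouped by gene, condensin I and Top2a above the dotted line and cohesin below it. Filled black points passed at an adjusted p under 0.05; they are 9 of 15 above the line and 1 of 9 below it, Stag2.

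Read against the whole table, 10 of 24 tested member probe sets were lower in LT-HSC, where 5.48% of the 27022 tested probe sets were, and 0 were higher, where 6.72% were. By limma 0 member probe sets were higher at an unadjusted p under 0.05 as well. Both LT-HSC arrays lay below both ST-HSC arrays on 21 of the 24 member probe sets and on 34.2% of all tested ones. With the probe set that was tested only through its ST-HSC level left aside, 9 of 23 were lower. With no filter, 9 of all 27 member probe sets were lower, where 2.22% of 45037 were. By a call on at least 1 probe set, 7 of the 10 genes were lower, and Smc1a, Smc3 and Rad21 had none. Under the other settings that kept all 4 arrays, this count ran from 5 to 8 genes. The share of all genes under this rule was not counted, and a gene with several probe sets meets it more easily. On the brightest probe set of each gene 6 of 10 were lower, where 6.41% of 12832 tested genes were.

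Other settings gave similar counts. Without normalization between arrays 9 member probe sets were lower (5.84% of all), with the arrays centred on their medians 10 (7.07%) and on their 75th percentiles 8 (5.78%). With a pseudocount of 4 or 64 the count was 10 each time (5.27% and 4.79%), and with the filter at the 60th percentile it was 9 of 22 (8.13%). Without the intensity trend 8 were lower (4.29%), with a robust prior 10 (5.4%), and at a threshold of 0.1 the count was 14 (11.1%).

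The replicates of a group did not vary alike over these genes. Over the 15 tested probe sets of condensin I and Top2a, LT-HSC replicate 1 read below LT-HSC replicate 2 on 15, with a median difference of -0.51 after normalization. Over the 9 cohesin probe sets it did so on 5, with a median of -0.05, and over all tested probe sets on 54.6%, with a median of -0.04. ST-HSC replicate 3 read below ST-HSC replicate 2 on 7 of the 15 and on 5 of the 9.

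**Figure D3:**
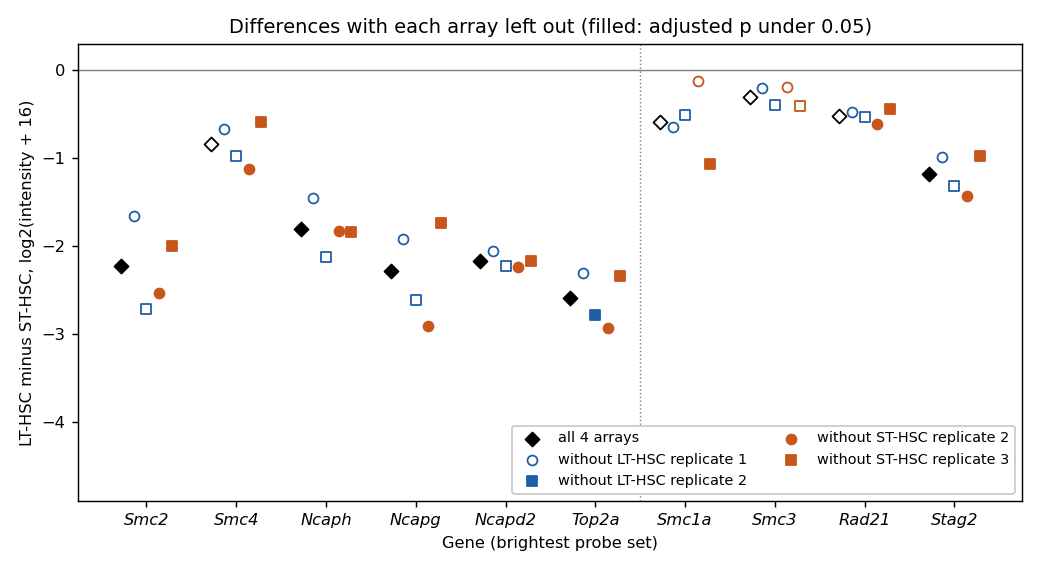
Difference LT-HSC minus ST-HSC (vertical axis, log2 scale) of the brightest probe set of each gene with all 4 arrays and with each array left out; filled symbols passed at an adjusted p under 0.05. All differences stay below 0, while without LT-HSC replicate 1 none is filled (0) and without LT-HSC replicate 2 only Top2a is.

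With 1 array left out, the count of lower member probe sets was 0 without LT-HSC replicate 1, 1 (Top2a) without LT-HSC replicate 2, and 15 and 16 with ST-HSC replicate 2 or 3 left out in turn. Over all tested probe sets the share lower was 0.0703% and 0.163% without LT-HSC replicate 1 and 2, and 16.8% and 11.6% without ST-HSC replicate 2 and 3. The lone array of a group is then assumed to vary like the other pair. The differences of the 15 condensin and Top2a probe sets were below 0 under each of these, except that of 1430010_at of Ncapd2 without ST-HSC replicate 2. Leaving out ST-HSC replicate 3 also left arrays of mice of 7.5 weeks alone, and all 24 tested member probe sets then had a difference below 0.

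The other genes of chromosome structure were taken from a list of 33, of which 32 had a named probe set and 30 were tested on their brightest one. Of these 30, 11 were lower in LT-HSC, 1 was higher and 18 did not pass, where 6.41% and 7.92% of the 12832 tested genes were lower and higher. The median difference was -0.63 against -0.08 over all genes, and both LT-HSC arrays lay below both ST-HSC arrays for 23 of the 30, where 35.7% of genes did so. The list was chosen with earlier results of these data known. Of the 28 with both group means above the filter level, 11 were lower. Without LT-HSC replicate 1 or 2 the counts were 0 lower and 0 higher, and they were 17 and 2 with ST-HSC replicate 2 left out and 12 and 1 with replicate 3 left out.

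Genes known for acting on cohesin in S phase and mitosis were among the lower ones. All 4 genes of cleavage and protection passed: the separase gene Espl1 (-1.90), its inhibitor securin, Pttg1 (-2.48, on 1 of 3 probe sets), and the shugoshins Sgo1 (-2.64) and Sgo2a (-2.05), which protect centromeric cohesin, with adjusted p from 0.00457 to 0.0447. Sgo1 read 15.03 and 72.3 on the LT-HSC arrays against 263 and 426 on the ST-HSC arrays. Cdca5, which encodes sororin and stabilises cohesion after replication, read 263 and 441 against 1592 and 1312 and was 4.33-fold lower (-2.12, SE 0.31, adjusted p = 0.00917). Esco2, an acetyltransferase that establishes cohesion in S phase, read 5.30 and 3.72 against 42.7 and 220.2 and did not pass on its brightest probe set (-2.38, SE 0.66, adjusted p = 0.0604), although its other probe set did. The LT-HSC mean of the brightest one lay below the level of the filter on dim probe sets, so it was tested only because of its ST-HSC level. Esco1, the counterpart of Esco2, lay at 0.32 (adjusted p = 0.484).

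Of the 6 tested genes of cohesin loading and release, Cdca5 and Pds5b were lower and 4 did not pass. Nipbl and Mau2, which form the loader, had differences of -0.21 and -0.82 (adjusted p = 0.64 and 0.101), and Pds5a and Wapl, which take part in release, -0.07 and -0.58 (adjusted p = 0.912 and 0.21). Pds5b was lower (189.6 and 159.97 against 471 and 436; -1.27, SE 0.29, adjusted p = 0.0381, 1 of 3 probe sets). Stag1, which replaces Stag2 in part of the cohesin complexes, read 671 and 593 against 643 and 475, with overlapping groups and a difference of 0.13 (95% interval -0.54 to 0.79, adjusted p = 0.791). Stag2 passed and Stag1 did not, and the difference between them was not tested. Of the other variants, Stag3 and Rec8, known from meiosis, did not pass (-0.62 and -0.48), and Smc1b was too dim to be tested.

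Condensin II, which acts in the nucleus before mitosis begins, shares Smc2 and Smc4 with condensin I and has its own other subunits. Of these Ncapd3 was lower (113 and 189 against 430 and 633; -1.63, SE 0.34, adjusted p = 0.0281, 1 of 3 probe sets). Ncapg2 and Ncaph2 overlapped between the groups, with differences of -0.15 (95% interval -1.02 to 0.72) and -0.00 (95% interval -0.61 to 0.61). The SMC genes outside both complexes, Smc5, Smc6 and Smchd1, did not pass (-0.64, -0.38 and -0.39).

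Among the topoisomerases, Top1, which cuts a single strand and acts in transcription, went the other way from Top2a. It read 1089 and 1050.9 on the LT-HSC arrays against 408 and 299.8 on the ST-HSC arrays and was 2.83-fold higher (difference 1.502, SE 0.26, adjusted p = 0.0168), on 1 of 3 probe sets. Top2b, the form of topoisomerase II that non-dividing cells also make, read 151 and 212 against 339 and 566 and did not pass (-1.12, SE 0.35, adjusted p = 0.085). Top3a and Top3b did not pass (-0.36 and -0.48). Ctcf, the factor at which cohesin loops stop, read 752 and 848 against 893 and 261, and its groups overlapped through ST-HSC replicate 3 (0.61, SE 0.55, adjusted p = 0.494). Mki67, Aurkb, Cdk1 and Kif4, which act at the surface of mitotic chromosomes or on condensin, were all lower (-1.08, -2.72, -2.55 and -2.02; adjusted p = 0.0232, 0.0129, 0.0156 and 0.0175).

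**Figure D4:**
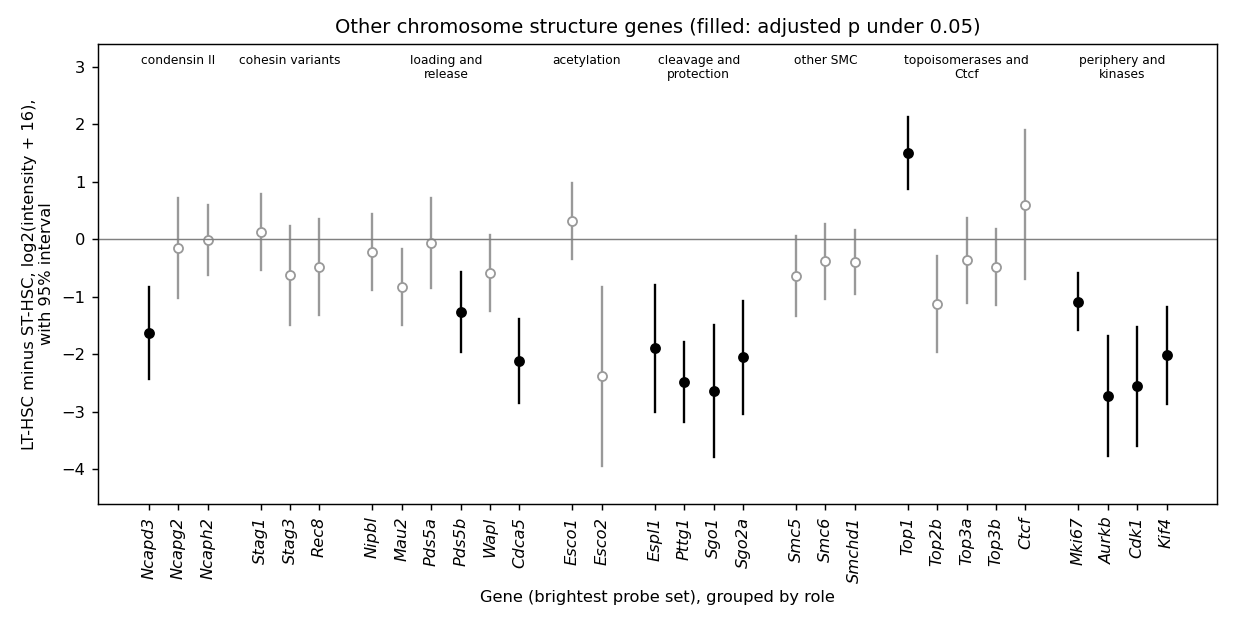
Difference LT-HSC minus ST-HSC (vertical axis, log2 scale) with its 95% interval for the brightest probe set of the 30 tested genes outside the member set, grouped by role; filled black points passed at an adjusted p under 0.05. The 4 genes of cleavage and protection and the 4 of the chromosome periphery and its kinases are all filled below 0, and Top1 is the filled point above 0.

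The genes whose pattern over the 4 arrays was most like the mean of Smc2, Ncapg and Top2a were Cenpu, Hmgb2, Fignl1, Tacc3 and Ccdc34. Likeness was the root mean square distance of the centred log2 values, which ran from 0.043 for Cenpu to 0.063 for Ccdc34 over 12822 genes. Their differences lay between -2.39 and -2.27, where the reference mean was -2.37. For the mean of Smc3, Rad21 and Stag2, at -0.66, the nearest genes were Gtf2e1, Npff, Rpf2, Zfp58 and Pid1, with distances of 0.010 to 0.022. None of these 5 passed (0), with adjusted p from 0.127 to 0.187. The genes of both lists were picked for nearness to their reference, so the size of their differences follows from that choice. With 4 arrays such likeness is a description of these arrays alone.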

How the data were processed

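RNA of the sorted cells was extracted with Trizol and given 2 rounds of amplification before biotin labelling, per the labels' protocols. The deposited table gives an intensity (linear) for each probe set on each array; how it was summarised and scaled is not stated in the sources used here. Of 45101 probe sets, 64 controls were dropped. Intensities plus 16 were log2 transformed and quantile normalized, and only the 27022 probe sets whose mean exceeded the 40th percentile were tested. The comparison used limma 3.58.1 under R 4.3.3 (lmFit, and eBayes with an intensity trend; 2 residual and 4.84 prior degrees of freedom), with Benjamini-Hochberg adjustment over the tested probe sets and a threshold of 0.05. The pseudocount understates the fold of dim probe sets. The number of arrays limits the precision: an exact two-sided permutation test cannot go below 0.333. The procedure was tested on simulated data. Names came from the platform annotation, which gave 1 symbol to 34945 probe sets, several to 932 and none to 9160. All member probe sets are shown; genes of the wider list enter by their brightest probe set. The rest of the genotype, which both groups shared, is not reported here. The members and lists were chosen with earlier results of these data known. Alternatives were other scalings, pseudocounts, filters and spread models, a threshold of 0.1, and each array left out on the same probe sets.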

Additional observations from a re-analysis of the deposited data

How the results depend on the processing

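No paired analysis was possible because the groups share only replicate number 2. With each array left out, the counts of probe sets or genes lower in LT-HSC ran from 0 to 16 for the members, from 0 to 17 for the other chromosome genes and from 19 to 4537 for all probe sets, and the counts higher from 0 to 1, from 0 to 2 and from 454 to 4178. The median difference ran from -1.73 to -1.12 for condensin and Top2a and from -0.64 to -0.44 for cohesin. The sign turned for 3 probe sets: Smc1a 1417831_at (range -1.24 to 2.16, below 0 without ST-HSC replicate 3), Smc1a 1417832_at (-0.12 to 0.33, below 0 without replicate 1 of LT-HSC or replicate 3 of ST-HSC, and -0.029 without normalization between arrays) and Ncapd2 1430010_at (-1.57 to 0.049, above 0 without ST-HSC replicate 2). The cohesin median was -0.43 without normalization, -0.33 and -0.29 with the arrays centred on their medians and 75th percentiles, -0.51 with a pseudocount of 64 and -0.70 without the filter. The condensin and Top2a median was -1.003 with a pseudocount of 64. At a threshold of 0.1, 3001 probe sets were lower and 2748 higher. The cause was not tested. Under the settings that kept all 4 arrays, 8 to 14 member probe sets were lower and 0 higher. Dim probe sets limit what can be seen: 3 of the 27 could not be tested.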
